A study of Mus musculus with 13 samples.

Results

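The insulin-like growth factor (IGF) axis was followed through the development of the mouse submandibular gland, one of the major salivary glands, by RNA-seq. Its 10 members were taken by gene symbol and comprised the ligand Igf1, the receptors Igf1r, Igf2r and Insr, and the binding protein genes Igfbp2, Igfbp3, Igfbp4, Igfbp5, Igfbp6 and Igfbp7. All 10 were found among the 23364 genes listed for each of the 13 samples. All 10 also belonged to the 14650 genes tested, those with at least 1 FPKM (reads on a gene scaled to its length and to the depth of the sample) in at least 1 sample, and each of the 10 reached that level in at least 1 sample of every time point. Whole glands were dissected from C57BL/6 mice, with no treatment or engineered allele named in the labels, at 3 embryonic ages named by day of gestation (E14.5 with 3 samples, E16.5 and E18.5 with 2 each), at postnatal day 5 (P5, 2 samples), and at 4 and 12 weeks (4wk and 12wk, 2 samples each). Embryonic glands were pooled, from 3 animals per sample at E14.5 and from 2 per sample at the later embryonic ages. The mice of 4wk and 12wk were male, whereas sex was not ascertained in embryos and at P5, so age and sex cannot be told apart. The study treated the embryonic time points as one stage (7 samples) and 4wk and 12wk as the adult stage (4 samples), and the same stages were compared here.

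IGF1 and IGF2 are secreted growth factors that act mainly through the tyrosine kinase receptor encoded by Igf1r. The insulin receptor, encoded by Insr, also binds IGF2 through one of its isoforms, whereas the receptor encoded by Igf2r carries no kinase, takes IGF2 into the cell for degradation and sorts lysosomal enzymes. The IGF binding proteins hold the ligands in the extracellular space and in the circulation, and they can restrain or prolong IGF action, with several actions that do not need the ligand. In many developing organs, IGF ligands and binding proteins are made largely by the mesenchyme, and the receptors are found in epithelium and mesenchyme alike.

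Promoter sequences are shown for 3 of the binding protein genes because their time courses differed most clearly, with Igfbp3 and Igfbp4 highest at E14.5 and Igfbp7 lowest there among the embryonic time points and highest at P5. Each is the 250 bases before the annotated transcript start, written 5′ to 3′ on the strand of the gene, from the RefSeq annotation of GRCm38.p6. Capitals mark a GC box (GGGCGG, either strand) or a TATA box (TATAAA, either strand).
Igfbp3, chr11:7213924-7214173, minus strand: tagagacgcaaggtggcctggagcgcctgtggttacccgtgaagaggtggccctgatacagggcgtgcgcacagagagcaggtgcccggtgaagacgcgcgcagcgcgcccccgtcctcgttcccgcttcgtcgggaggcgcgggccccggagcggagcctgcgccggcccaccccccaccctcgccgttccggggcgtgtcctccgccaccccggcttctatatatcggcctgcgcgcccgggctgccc
Igfbp4, chr11:99040994-99041243, plus strand: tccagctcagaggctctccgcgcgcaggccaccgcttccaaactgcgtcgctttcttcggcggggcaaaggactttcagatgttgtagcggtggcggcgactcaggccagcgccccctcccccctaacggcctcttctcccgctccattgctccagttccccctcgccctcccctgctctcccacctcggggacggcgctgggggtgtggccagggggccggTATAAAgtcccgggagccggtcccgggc
Igfbp7, chr5:77408046-77408295, minus strand: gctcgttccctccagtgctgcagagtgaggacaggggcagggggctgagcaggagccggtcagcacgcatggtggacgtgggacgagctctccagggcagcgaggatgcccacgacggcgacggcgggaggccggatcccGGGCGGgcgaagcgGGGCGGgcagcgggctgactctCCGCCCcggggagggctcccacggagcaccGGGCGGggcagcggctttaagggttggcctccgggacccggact
The Igfbp7 window held 4 GC boxes and no TATA box, and the Igfbp4 window held 1 TATA box that begins 28 bases before the start. Neither motif was matched to the letter in the Igfbp3 window, which holds the similar letters tatatat near its end. Among the 32851 promoter windows of the annotation, 32.7% held a GC box and 12.4% a TATA box. Of the 10 members, 9 had a promoter entry. Of these, 4 (Igf1r, Igf2r, Igfbp2 and Igfbp7) had a GC box in at least 1 window and 2 (Igfbp4 and Igfbp6) had a TATA box. The match in Igfbp6 was on the opposite strand, at -148 from the start. The windows of Igfbp3, Igfbp4 and Igfbp7 held 32, 22 and 26 CG dinucleotides, against a median of 6 over all windows. A CCAAT box (CCAAT, either strand, in 33.8% of windows) was matched in Igf1 and Igfbp6, and a GAS element (TTCNNNGAA, the core recognised by STAT factors, in 7.02% of windows) in none of the members' windows. These matches describe letters only, and no binding was measured.

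In the mm9 (NCBIM37) annotation of GENCODE, Igfbp2 (chr1:72871077-72899048, plus strand) and Igfbp5 (chr1:72904506-72921458, minus strand) lie tail to tail with 5457 bases between them, and Igfbp3 (chr11:7106089-7113926, minus strand) lies tail to tail with Igfbp1 at a distance of 3539 bases. The other members are Igf1 (chr10:87321010-87399792, plus), Igf1r (chr7:75097713-75371484, plus), Igf2r (chr17:12875272-12962530, minus), Insr (chr8:3150922-3279617, minus), Igfbp4 (chr11:98902558-98913969, plus), Igfbp6 (chr15:101974793-101979942, plus) and Igfbp7 (chr5:77778265-77837070, minus). FPKM were summed over the exons of each gene. Igf2r overlaps the antisense transcript Airn and Igfbp7 overlaps Polr2b on the opposite strand. The strand setting of the counting is not given in the sources used here, and reads that fell on more than one gene had been discarded.

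The deposited FPKM corresponded to between 5817293 reads on genes, in replicate 1 of 4wk, and 48314162, in replicate 1 of P5. Reads on single members ranged from 33, for Igfbp6 in replicate 1 of 4wk, to 27482, for Igfbp5 in replicate 2 of E16.5, so that the 4wk values carry the largest counting error. Because FPKM are relative to a sample's own total, abundant genes weigh on all others, and the 10 most abundant genes took from 5.93% of all FPKM, in replicate 2 of E16.5, to 61.1%, in replicate 2 of 4wk. Every comparison was therefore also made on FPKM rescaled by median-of-ratios factors, and the rescaled values are given where they change a call or a direction. From embryo to adult, the median log2 fold change of all tested genes was -0.75 as deposited and -0.08 after rescaling. Marker genes of the tissue were present. The summed FPKM of 5 acinar markers rose from a range of 32.3 to 3117 in the embryo to between 36781 and 73932 in the adult, all 5 passing the test. Most of the adult sum was Pip, at 72414 and 73391 FPKM at 4wk and 44906 and 30022 at 12wk. From E18.5 to 12wk, Aqp5 went from 163 and 170 to 141 and 137, and Bhlha15 from 77.7 and 74.9 to 167 and 134. Of 9 fibroblast and mesenchyme markers, 8 were lower in the adult with and without rescaling, and their sum went from between 1883 and 2747 to between 260 and 526. Of 6 endothelial markers, 6 were lower as deposited and 3 after rescaling. In bulk tissue, fewer cells of a type and less RNA per cell cannot be told apart, and the part of these cell populations in the results below was not tested.

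**Figure D1:**
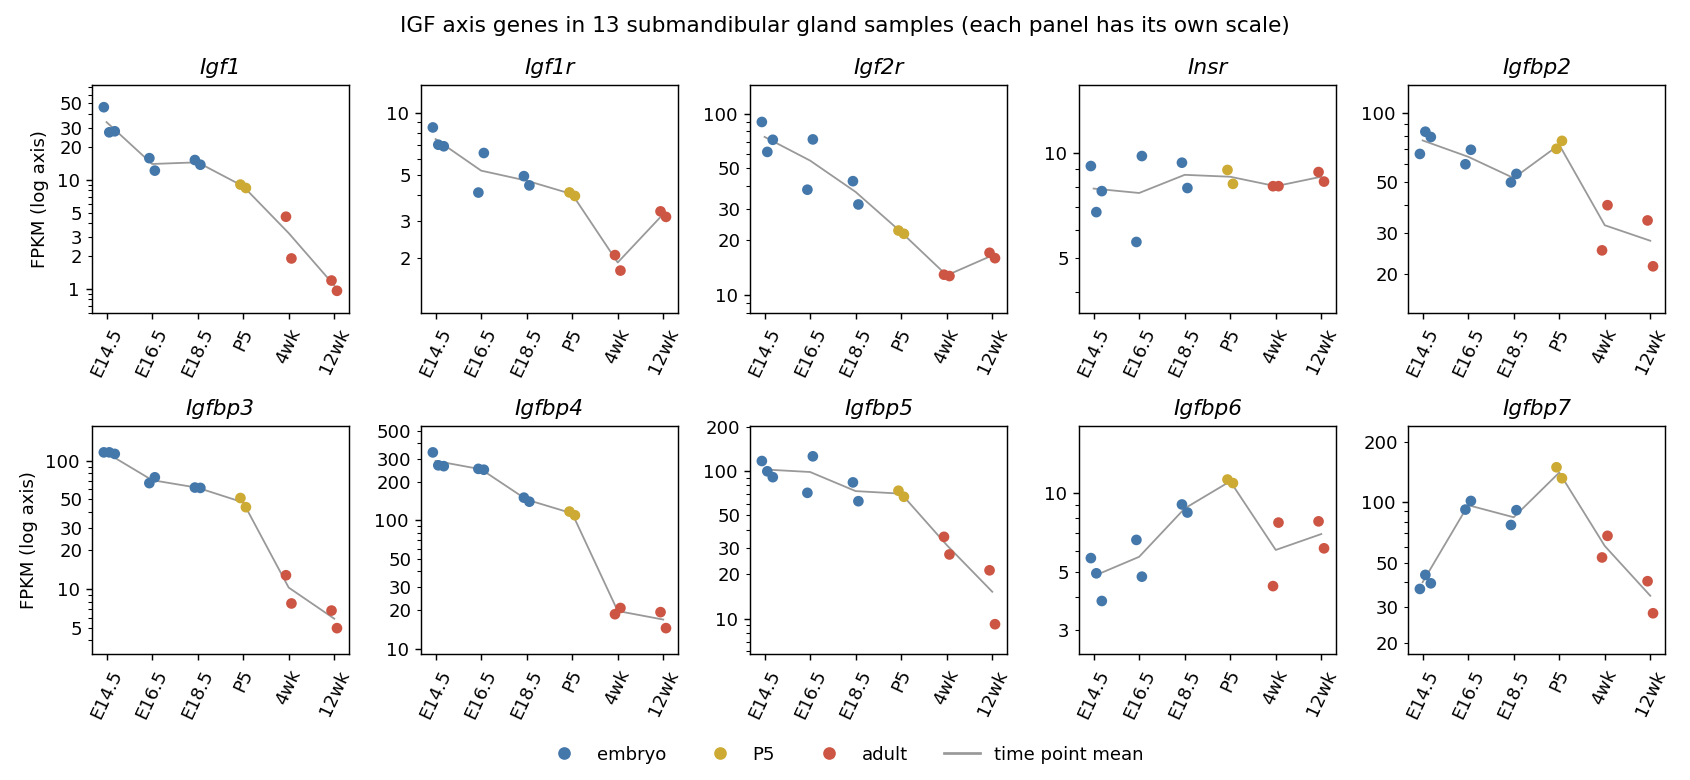
FPKM of the 10 IGF axis genes (log axis, own scale in each panel) in each of the 13 samples, by time point, with the mean of each time point as a line. Igf1, Igf2r, Igfbp3 and Igfbp4 stepped down from E14.5 to the adult, Igfbp7 peaked at P5 with 149 and 132 FPKM, and Insr stayed between 5.55 and 9.80 FPKM.

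Igf1, the ligand, was highest at E14.5, with 46.1, 27.1 and 27.7 FPKM. It was 15.7 and 12.1 FPKM at E16.5, then 15.1 and 13.7 in E18.5, and 9.01 and 8.39 by P5. The adult samples stood at 4.57 and 1.90 FPKM at 4wk and at 1.19 and 0.958 at 12wk. The samples of successive time points did not overlap except between E16.5 and E18.5, whose ranges crossed, and the mean of E14.5 was 31.3 times that of 12wk (15.7 times after rescaling). In the test over stages, by limma with adjustment over all 14650 genes, Igf1 fell from embryo to adult by 2.88 on the log2 scale (SE 0.35, adjusted p = 5.8e-06, from a mean of 22.5 ± 12.2 FPKM, SD, n = 7, to 2.15 ± 1.66, n = 4). Rescaled, the decrease was -2.16 (adjusted p = 0.00013). Replicate 1 of E14.5 held 1.68 times the Igf1 of the other E14.5 samples, and replicate 1 of 4wk 2.41 times that of replicate 2. These libraries also stood apart in marker genes. The summed epithelial markers were 363 FPKM in replicate 1 of E14.5, against 644 and 617 in the other E14.5 samples. Its summed skeletal muscle markers were 272 FPKM, against 136 and 107. The summed adipocyte markers were 793 FPKM in replicate 1 of 4wk, against 62.1 in replicate 2. Their part in the Igf1 values was not tested.

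Among the receptors, Igf2r passed the test as lower in the adult, Igf1r came just short of it, and Insr differed little on the deposited scale. Igf2r, the clearance receptor for IGF2, measured 90.0, 61.5 and 71.8 FPKM at E14.5. It stood at 38.1 and 72.1 in E16.5, then 42.5 and 31.6 in E18.5, and 22.7 and 21.8 by P5. In the adult it was 12.96 and 12.74 at 4wk, then 17.1 and 16.0 at 12wk. As deposited, all embryonic samples were above both P5 samples, which were above all adult samples. The replicates of E16.5 differed by 1.89 times and overlapped both neighbouring time points. From embryo to P5, Igf2r fell by 1.26 on the log2 scale (SE 0.32, adjusted p = 0.012), and from embryo to adult by 1.84 (SE 0.25, adjusted p = 1.4e-05). After rescaling, the first difference was -1.0008 (adjusted p = 0.03), still past the threshold, and the second -0.93 (adjusted p = 0.0024), short of the threshold of 1 on the log2 scale. From P5 to adult it was -0.58 as deposited and 0.07 after rescaling, neither of which passed the test. The overlapping antisense transcript Airn stood between 4.76 and 8.20 FPKM from E14.5 to P5, and from 0.864 to 2.39 FPKM in the adult.

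Igf1r, the kinase receptor for both ligands, was expressed at a far lower level per length than Igf2r in every sample. It measured 8.48, 7.003 and 6.88 FPKM at E14.5. This was followed by 4.13 and 6.39 in E16.5 and by 4.95 and 4.47 in E18.5, with 4.13 and 3.97 by P5. Adult samples held 2.07 and 1.74 at 4wk, then 3.35 and 3.15 at 12wk. As deposited, the adult samples lay below all others, and 4wk lay below 12wk without overlap. After rescaling, the 4wk samples were still lowest, but 12wk (4.92 and 4.98) lay above E18.5 (4.05 and 3.89) and P5 (3.79 and 3.85). The difference from embryo to adult was -0.97 on the log2 scale (SE 0.19, adjusted p = 0.0004), just short of the size required, and -0.23 after rescaling (adjusted p = 0.27). With a pseudocount of 0.1 in place of 1 it was -1.21 and passed the test.

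Insr, the insulin receptor, was 9.18, 6.77 and 7.77 FPKM at E14.5. The later embryonic values were 5.55 and 9.80 for E16.5, then 9.38 and 7.93 for E18.5, and those of P5 were 8.94 and 8.15. At 4wk it measured 8.03 and 8.03, with 8.82 and 8.28 at 12wk. The adult samples fell inside the range of the embryonic samples. The difference from embryo to adult was 0.06 on the log2 scale as deposited (SE 0.14, adjusted p = 0.73) and 0.91 after rescaling (adjusted p = 5.6e-05), where the samples of the stages no longer overlapped. The level of Insr relative to other genes thus depended on the scaling, and neither value reached the required size of 1.

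Ratios between receptors within a sample do not depend on that scaling. The ratio of Igf1r to Insr was 0.924, 1.04 and 0.885 at E14.5. It stood at 0.743 and 0.652 in E16.5, then 0.528 and 0.563 in E18.5, and 0.462 and 0.487 by P5. In the adult it was 0.257 and 0.217 at 4wk, then 0.380 and 0.381 at 12wk. Every embryonic sample was above every P5 sample, and every P5 sample above every adult one, with the 4wk samples lowest. Between embryo and adult the mean log2 ratio differed by -1.30, a 2.47-fold shift towards Insr (two-sided exact permutation test over 330 labellings, p = 0.00303, the smallest the design allows, and 0.00455 after Benjamini-Hochberg adjustment over the 3 ratios). The ratio of Igf2r to Insr ranged from 3.98 to 9.81 in the embryo, with a median of 7.36, was 2.54 and 2.67 at P5, and ranged from 1.59 to 1.94 in the adult. Its mean log2 value differed by -1.97, or 3.92-fold, with the same exact p = 0.00303 and adjusted p = 0.00455. The ratio of Igf2r to Igf1r moved least, from between 7.07 and 11.3 in the embryo to between 5.07 and 7.31 in the adult, with overlap of 1 sample each way, and was 5.49 and 5.48 at P5. That difference was -0.67 on the log2 scale (exact permutation p = 0.00606, also 0.00606 after adjustment). Insr thus gained on both other receptors from E14.5 through P5 to 4wk, while from 4wk to 12wk the ratios of Igf1r and Igf2r to Insr were higher again in both samples.

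**Figure D2:**
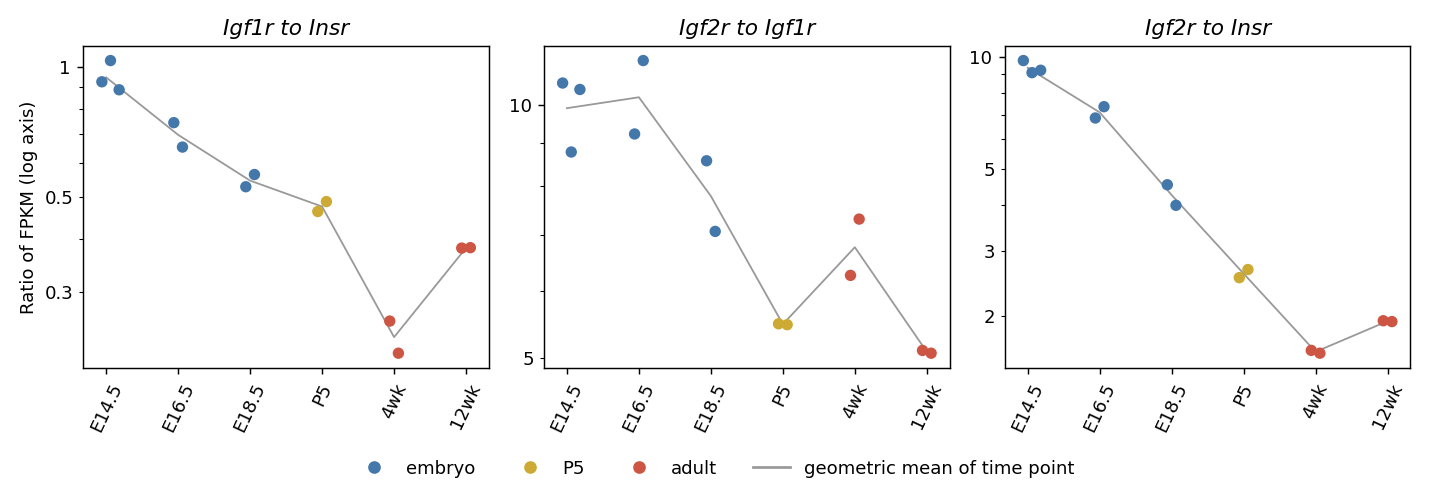
Ratios of FPKM between the receptor genes in each sample (log axis), by time point, with the geometric mean of each time point as a line. The ratios of Igf1r and of Igf2r to Insr descended from 0.885 to 1.04 and from 9.09 to 9.81 at E14.5 to between 0.217 and 0.257 and between 1.59 and 1.61 at 4wk.

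The most abundant members were binding proteins, and these separated into genes that were lower at each later stage, genes that fell after P5, and Igfbp7 and Igfbp6, whose deposited values were highest at P5. Igfbp4, which inhibits IGF action and is cleaved by the protease PAPP-A, was the most abundant of the 10 members at each embryonic time point. It measured 338, 268 and 264 FPKM at E14.5. This was followed by 251 and 248 in E16.5 and by 150 and 140 in E18.5, with 117 and 109 by P5. Adult samples held 18.6 and 20.7 at 4wk, then 19.3 and 14.45 at 12wk. Successive time points did not overlap up to 4wk, and 4wk and 12wk overlapped. From embryo to adult it fell by 3.58 on the log2 scale (SE 0.22, adjusted p = 1.4e-08), or 11.9-fold, against -2.66 after rescaling (adjusted p = 1.4e-07). The step from P5 to 4wk was -2.47 (SE 0.16, adjusted p = 1.1e-06), compared with -0.78 (SE 0.16, adjusted p = 0.013) from E16.5 to E18.5.

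Igfbp3, the main carrier of IGFs in serum, followed a like course at a lower level. Its values were 116, 116 and 113 FPKM at E14.5. The later embryonic values were 67.0 and 74.4 for E16.5, then 61.9 and 61.5 for E18.5, and those of P5 were 51.3 and 43.5. At 4wk it measured 12.8 and 7.73, with 6.80 and 4.96 at 12wk. No pair of successive time points overlapped. The change from embryo to adult was -3.29 (SE 0.25, adjusted p = 7.6e-08) and -2.41 after rescaling (adjusted p = 1.2e-06), and that from P5 to 4wk -2.14 (SE 0.20, adjusted p = 1.3e-05).

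Igfbp5, which binds to extracellular matrix, measured 117, 99.6 and 90.9 FPKM at E14.5. It stood at 71.2 and 126 in E16.5, then 83.8 and 62.5 in E18.5, and 73.6 and 67.0 by P5. In the adult it was 35.8 and 27.2 at 4wk, then 21.3 and 9.17 at 12wk. Neighbouring time points from E14.5 to P5 overlapped, while E14.5 lay above E18.5 and P5 without overlap. Every adult sample was below all embryonic and P5 samples. It fell by 1.69 from P5 to adult (SE 0.40, adjusted p = 0.0045; rescaled -1.04, adjusted p = 0.055) and, alone among the members as deposited, from 4wk to 12wk, 2.14-fold on the scale of FPKM + 1 (adjusted p = 0.061). The latter rested on single libraries, since it was -0.53 (adjusted p = 0.42) without replicate 2 of 12wk and -0.91 (adjusted p = 0.23) without replicate 1 of 4wk. Replicate 1 of 12wk held 2.32 times the Igfbp5 of replicate 2. The acinar marker Amy1 was 625 FPKM in replicate 1 against 6360 in replicate 2, and Slc12a2 was also lower in replicate 1. Pip, Bhlha15 and Aqp5 were higher in replicate 1, and the sum of these 5 acinar markers was 45931 FPKM against 36781. The part of these differences between the libraries in the Igfbp5 values was not tested.

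Igfbp2, which binds both IGFs, measured 66.6, 83.2 and 78.9 FPKM at E14.5. This was followed by 60.0 and 69.4 in E16.5 and by 50.01 and 54.5 in E18.5, with 70.1 and 75.9 by P5. Adult samples held 25.3 and 39.8 at 4wk, then 34.1 and 21.5 at 12wk. The P5 samples lay within the embryonic range and the adult samples below it. It fell from P5 to adult by 1.28 on the log2 scale (SE 0.25, adjusted p = 0.0013), but by 0.62 after rescaling (adjusted p = 0.075), and from embryo to adult by 1.12 (SE 0.18, adjusted p = 5.7e-05) against -0.20 after rescaling (adjusted p = 0.34). Relative to the median gene, the lower adult level of Igfbp2 was therefore not shown.

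Igfbp7, a secreted protein with low affinity for IGFs that is found around blood vessels, differed in its course from Igfbp3 and Igfbp4. It was 37.1, 43.5 and 39.5 FPKM at E14.5. The later embryonic values were 91.9 and 101 for E16.5, then 77.0 and 91.3 for E18.5, and those of P5 were 149 and 132. At 4wk it measured 53.1 and 68.1, with 40.5 and 28.1 at 12wk. Both P5 samples were above all others, and the E14.5 samples were below those of E16.5, E18.5 and 4wk. It rose from E14.5 to E16.5 by 1.25 (SE 0.17, adjusted p = 0.00069; rescaled 1.25), the only member to pass as higher in that step, and was 0.73 higher at P5 than at E18.5 (SE 0.18, adjusted p = 0.02), below the required size. It then fell from P5 to adult by 1.61 (SE 0.44, adjusted p = 0.0094). After rescaling this last change was -0.94 (adjusted p = 0.15). Between embryo and adult it differed by -0.49 as deposited and 0.44 rescaled, without passing the test on either scale. The summed endothelial markers, between 112 and 141 FPKM in the embryo and 116 and 87.9 at P5 were not highest at P5. The pericyte marker Rgs5 was, with 29.3 and 24.4 FPKM against at most 18.4 elsewhere, but no other pericyte or smooth muscle marker listed was. Cspg4 and Des were highest in replicate 2 of E16.5, and Myh11, Cnn1 and Acta2 in replicate 1 of 12wk. The sum of these 6 pericyte and smooth muscle markers was 261 and 281 at P5 and reached 374 in replicate 1 of 12wk. The summed immune markers were highest at P5, with 46.1 and 43.3 FPKM against at most 36.5 elsewhere. The summed adipocyte markers were 1123 and 342 FPKM at P5, against 793 in replicate 1 of 4wk and 383 in replicate 1 of E18.5. The part of these cell populations in the Igfbp7 values was not tested.

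Igfbp6, which prefers IGF2 strongly over IGF1, was the least abundant of these binding proteins in all samples from E14.5 to 4wk, whereas at 12wk Igfbp3 was lower in both samples. It measured 5.63, 4.93 and 3.86 FPKM at E14.5. It stood at 6.61 and 4.78 in E16.5, then 9.03 and 8.42 in E18.5, and 11.3 and 10.9 by P5. In the adult it was 4.40 and 7.70 at 4wk, then 7.79 and 6.14 at 12wk. As deposited, the P5 samples were above all others, and the adult samples lay inside the embryonic range. After rescaling this order did not hold, with 10.3 and 10.6 at P5 against 12.5 in replicate 2 of 4wk and 11.4 in replicate 1 of 12wk. The difference from embryo to adult was 0.08 as deposited (adjusted p = 0.73) and 0.90 after rescaling (adjusted p = 0.0043), both under the required size. The difference from embryo to P5 was 0.79 on the log2 scale (SE 0.27, adjusted p = 0.04) and reached 1.01 after rescaling (adjusted p = 0.035), which passed the test. Its value in replicate 1 of 4wk rested on 33 reads.

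Of the 10 members, 6 passed the test from embryo to adult, all lower (Igf1, Igf2r, Igfbp2, Igfbp3, Igfbp4 and Igfbp5), where 43.6% of all tested genes passed and 38% passed as lower. The median log2 fold change of the members was -1.48, against -0.75 for all genes. After rescaling, 4 members passed, all lower (Igf1, Igfbp3, Igfbp4 and Igfbp5), where 28.4% of genes passed and 14.7% as lower, and the members' median was -0.58 against -0.08. From P5 to adult, 6 members passed, again all lower (Igf1, Igfbp2, Igfbp3, Igfbp4, Igfbp5 and Igfbp7), where 23.1% of genes passed and 20.8% as lower. Rescaling left 4 of them (Igf1, Igfbp3, Igfbp4 and Igfbp5), where 14.6% of genes passed and 8.53% as lower. From embryo to P5, 3 members passed, with Igf1 and Igf2r lower and Igfbp7 higher, where 12.3% of genes passed (8.14% as lower and 4.14% as higher). After rescaling 3 members passed as well, where 9.45% of genes did, but Igf1 (-0.88, adjusted p = 0.18) was no longer among them and Igfbp6 was. The Igf1 call was also lost with a pseudocount of 0.1 (adjusted p = 0.11), with no filter on low values (0.12), with the replicate block (0.12) and without any one of the E14.5 samples, and the Igfbp7 call with the block (0.10) and without replicate 1 of E14.5. With either P5 sample left out, limma called 0 members, 1 library then standing for P5, although the changes were of like size, at -1.18 and -1.09 for Igf1, -1.29 and -1.23 for Igf2r, and 1.04 and 1.22 for Igfbp7. Igfbp4, at -0.9996 on the log2 scale (adjusted p = 0.02), stood just under the size required in this comparison. It passed with a pseudocount of 0.1 (-1.005), with limma-voom (-1.006) and without either E18.5 sample, whereas its adjusted p was 0.13 and 0.16 without replicate 1 and 2 of P5.

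Between successive time points, most calls as deposited fell in the step from P5 to 4wk, which was not so after rescaling. From E14.5 to E16.5, 2 of 10 passed (Igf1 lower, Igfbp7 higher), where 5.15% of genes did (0.983% as lower and 4.17% as higher). Igf1 changed there by -1.18 (SE 0.28, adjusted p = 0.015) and by -0.94, under the threshold, without replicate 1 of E14.5. The same 2 members passed after rescaling, where 4.39% of genes did. From E16.5 to E18.5 and from E18.5 to P5, 0 of 10 passed by limma, where 2.94% and 5.04% of genes did. The members at an unadjusted limma p below 0.05 numbered 2 and 4 in these steps, beside 8 and 16 of 45 other pathway genes. The share of all tested genes at that level was not determined, so these counts are not a result about the members. Limma-voom on reads worked out from the FPKM called 0 members in both steps. From P5 to 4wk, 6 of 10 passed, all lower and the same as from P5 to adult, where 24.3% of genes passed and 22.1% as lower. After rescaling, Igfbp3 (-1.51, adjusted p = 5e-05) and Igfbp4 (-1.82, adjusted p = 1.9e-05) remained in that step, where 15.1% of genes passed and 8.72% as lower. From 4wk to 12wk, 1 of 10 passed as deposited (Igfbp5), where 5.15% of genes did, 2.48% as lower. After rescaling, Igf1 (-1.06, adjusted p = 0.03) passed beside Igfbp5, where 6.87% of genes did, and without replicate 1 of 4wk the deposited Igf1 difference was -0.48 (adjusted p = 0.34).

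**Figure D3:**
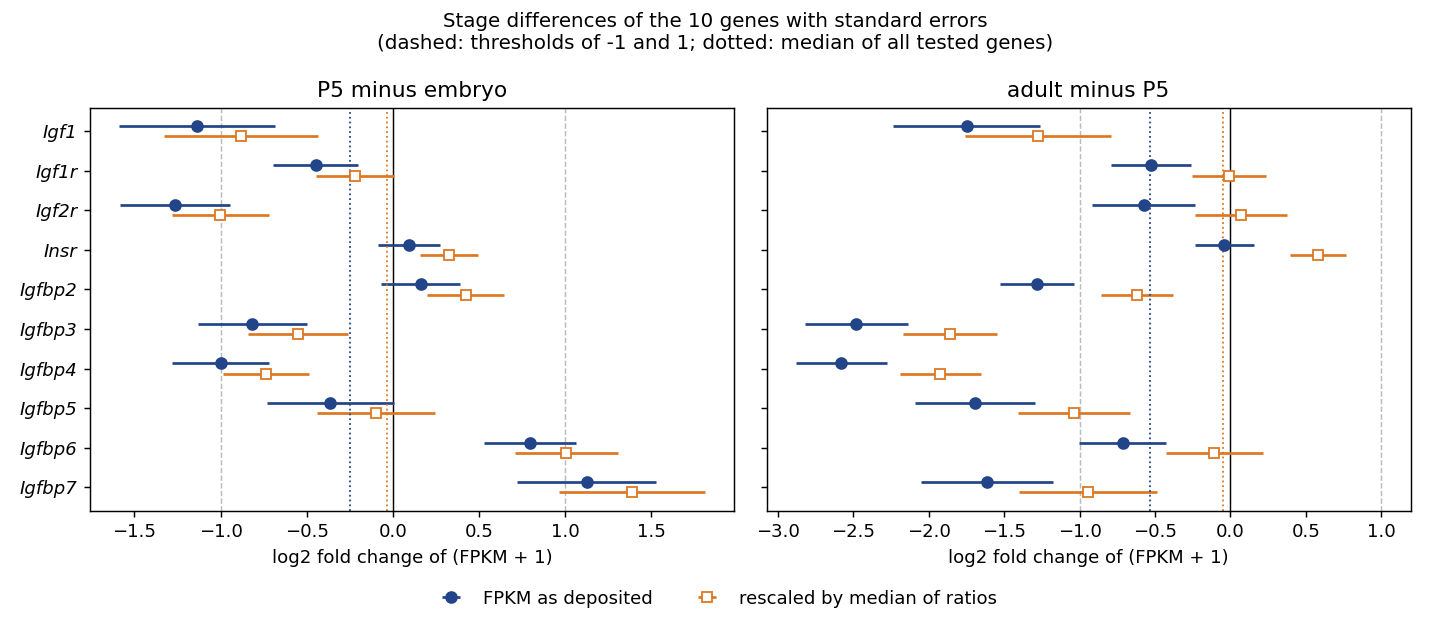
Log2 fold changes of (FPKM + 1) with standard errors for the 10 genes, P5 minus embryo and adult minus P5, as deposited (filled circles) and rescaled by median of ratios (open squares), with dashed lines at the thresholds and dotted lines at the median of all tested genes. Igfbp3 (-2.48 and -1.86) and Igfbp4 (-2.58 and -1.92) lay farthest below the median gene from P5 to adult, and Igfbp7 (1.13 and 1.39) farthest above it from embryo to P5.

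The composition of the binding protein mRNAs, which does not depend on the scaling of a sample, turned over between E14.5 and the adult. Igfbp4 made up 49.6%, 43.5% and 44.7% of the summed FPKM of the 6 genes at E14.5. This was followed by 45.9% and 39.7% in E16.5 and by 34.7% and 33.4% in E18.5, with 24.8% and 25.0% by P5. Adult samples held 12.4% and 12.1% at 4wk, then 14.8% and 17.1% at 12wk. Igfbp7 took 5.45%, 7.07% and 6.70% at E14.5. The later embryonic values were 16.8% and 16.3% for E16.5, then 17.8% and 21.9% for E18.5, and those of P5 were 31.6% and 30.0%. At 4wk it measured 35.4% and 39.8%, with 31.2% and 33.3% at 12wk. The share of Igfbp4 and that of Igfbp7 crossed between E18.5 and P5, and from P5 on Igfbp7 was the most abundant member of the axis in every sample. Igfbp3 went from 18.4% on average at E14.5 to 5.56% at 12wk, whereas Igfbp2 went from 12.2% to 25.9% and Igfbp6 from 0.761% to 6.64%. The share of Igfbp5 averaged between 13.6% and 19.9% at all time points, with replicates differing by as much as these means. The sum of the 6 genes was 558 ± 99.4 FPKM in the embryo (SD, n = 7), 472 and 438 at P5, and 134 ± 37.1 in the adult (n = 4), or 435 ± 56.4, 433 and 425, and 203 ± 59.4 after rescaling. No test was made on these shares.

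**Figure D4:**
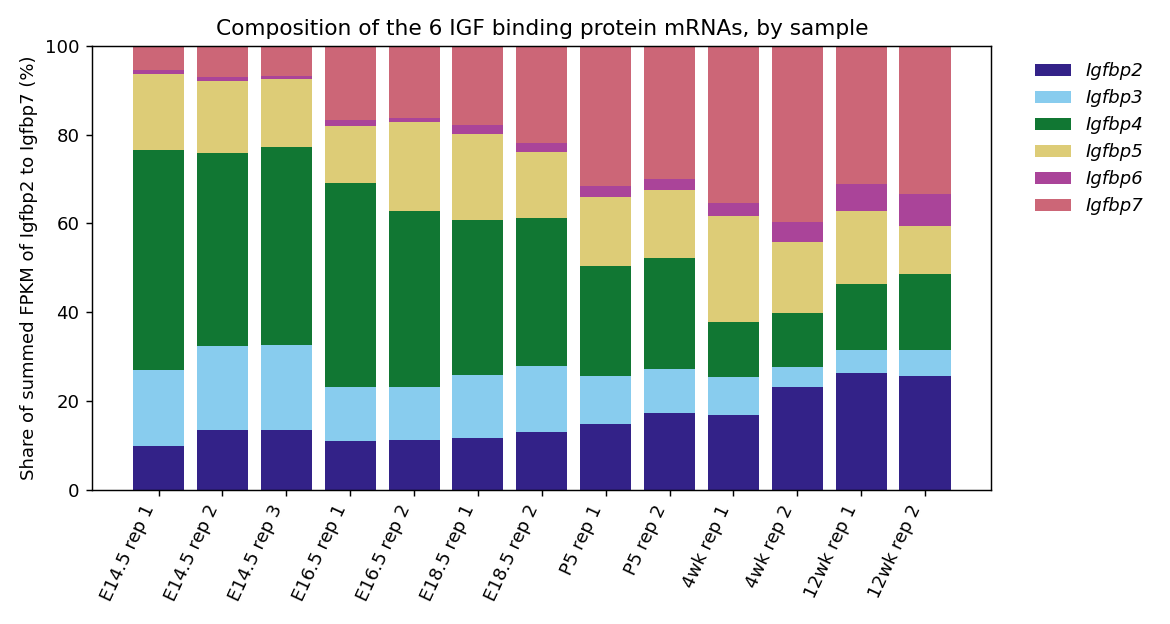
Share of each of 6 binding protein genes in their summed FPKM (percent, stacked to 100), in each of the 13 samples in order of age. The share of Igfbp4 shrank from between 43.5% and 49.6% at E14.5 to between 12.1% and 17.1% in the adult, while that of Igfbp7 grew from between 5.45% and 7.07% to between 31.2% and 39.8%.

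Other genes of the pathway were drawn from a list of 51 ligands, carriers, proteases and signalling genes in the files, of which 45 were tested. From embryo to adult, 12 were lower and 2 higher, where 43.6% of all tested genes passed and 38% as lower, and their median log2 fold change was -0.67 against -0.75 for all genes. After rescaling 5 were lower (Igf2, Adamts1, Socs3, Grb10 and Pik3r2) and 5 higher (Igfals, Stat5a, Pik3cb, Eif4ebp1 and Foxo1), where 28.4% passed and 14.7% as lower, with a median of 0.13 against -0.08. Igf2, the fetal ligand, stood at 1044, 839 and 833 FPKM at E14.5. It stood at 589 and 544 in E16.5, then 446 and 409 in E18.5, and 248 and 252 by P5. In the adult it was 1.01 and 0.860 at 4wk, then 0.919 and 1.06 at 12wk. Each time point up to 4wk lay below the one before, and the decrease from P5 to 4wk was 7.02 on the log2 scale (SE 0.13, adjusted p = 3.6e-11). Igf2 exceeded Igf1 by between 22.6 and 45.0 times in all samples up to P5, and the ratio was between 0.222 and 1.11 in the adult. Grb10, an adaptor that restrains insulin and IGF receptor signalling, fell from 185 ± 90.7 to 2.85 ± 1.40 FPKM between embryo and adult (-5.52, SE 0.35, adjusted p = 1.8e-08). Adamts1, a protease of the extracellular matrix, fell from 29.0 ± 11.5 to 1.15 ± 0.633 FPKM (-3.76, SE 0.26, adjusted p = 4.3e-08).

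Igfals, which encodes the acid-labile subunit that stabilises complexes of IGFs with IGFBP3 and IGFBP5, took the opposite direction. It was at most 0.571 FPKM in the embryo and then 1.61 and 1.53 by P5. It reached 6.84 and 4.05 at 4wk, then 19.6 and 17.1 at 12wk, without overlap between successive time points from E18.5 on. It rose by 3.09 from embryo to adult (SE 0.32, adjusted p = 1.1e-06) and by 1.62 from 4wk to 12wk (SE 0.20, adjusted p = 0.00055). Eif4ebp1, a repressor of translation under control of mTOR, rose from 50.5 ± 16.8 to 102 ± 33.7 FPKM (1.02, SE 0.27, adjusted p = 0.0033). Igfbp1, the remaining binding protein gene, was at most 0.10 FPKM in any sample and was not tested. Of the 5 tested IGFBP proteases and their inhibitors, 4 were lower in the adult as deposited (Pappa, Stc1, Htra1 and Adamts1) and 1 after rescaling (Adamts1). Of 9 tested receptor adaptors, 3 were lower (Irs1, Grb10 and Sh2b1) and 1 after rescaling (Grb10), and of 19 genes of the PI3K, AKT and mTOR route, 2 were lower (Pik3r2 and Akt1) and 1 higher (Eif4ebp1), or 1 (Pik3r2) and 2 (Pik3cb and Eif4ebp1) after rescaling. These counts stand against the same shares of all tested genes.

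The genes with the most similar course over the 13 samples, by Pearson r of log2(FPKM + 1) among the 12930 genes with a mean of at least 1 FPKM, were determined for each member as a description. For Igfbp4 these were Fkbp10 (r = 0.998), Crtap (0.998) and Palm (0.998), of which Fkbp10 and Crtap act in collagen folding and modification, and after rescaling the same 3 genes ranked highest. Igfbp3 ran with Akap12 (0.996), Fbn1, which encodes the microfibril protein fibrillin (0.995), and Msn (0.995), with r between 0.979 and 0.993 after rescaling. Igfbp5 ran with the collagen genes Col6a2 (0.977), Col6a1 (0.976) and Col1a1 (0.973), with r between 0.927 and 0.931 after rescaling. Igf1 ran with Zfp41 (0.990), Tdrd3 (0.990) and Pkia (0.988), which gave 0.986, 0.833 and 0.981 after rescaling. The 13 samples are of one tissue at 6 time points and differ in depth, and genes that drop towards the adult correlate with each other. Igfbp2 was closest to Moxd1 (0.977), Cygb (0.958) and Mpzl2 (0.954), with 0.870, 0.761 and 0.825 after rescaling, and Igfbp7 to Edn1, which encodes endothelin (0.936), Abtb1 (0.932) and Hist1h1c (0.932), with 0.898, 0.915 and 0.928. The receptors Igf1r and Igf2r were closest to Cdc42bpa (0.988), Ric8b (0.985) and Dnajc13 (0.985), and to Sec23ip (0.994), Eya3 (0.993) and Ube4b (0.988). After rescaling these gave 0.940, 0.934 and 0.929 for Igf1r, and 0.534, 0.822 and 0.906 for Igf2r. Igfbp6 (1300002E11Rik, 0.894; Fam161a, 0.871; Susd2, 0.860) and Insr (Rab3gap2, 0.845; Akap9, 0.795; Rrbp1, 0.783) had no gene above 0.9 as deposited, but after rescaling r with these genes was 0.952, 0.883 and 0.904 for Igfbp6 and 0.968, 0.945 and 0.973 for Insr. Between members, r was 0.982 for Igfbp3 and Igfbp4 and 0.972 for Igf1 and Igfbp3 (0.967 and 0.956 after rescaling), whereas the neighbours on chromosome 1, Igfbp2 and Igfbp5, gave 0.882 (0.487 after rescaling).

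Part of the spread between replicates went with transcript length. In E16.5, replicate 2 held 1.55, 1.89, 1.76 and 1.77 times the FPKM of replicate 1 for Igf1r, Igf2r, Insr and Igfbp5, whose lengths, worked out from the steps of the FPKM, were 11978, 8929, 9355 and 5854 bases. The members of 2440 bases or less differed by between 0.723 and 1.16 times, and Igf1, at 7817 bases, by 0.769 times. Over all tested genes, the median of replicate 2 over replicate 1 on the scale of FPKM + 1 was 0.923 below 2000 bases, 1.12 from 2000 to 5000, 1.29 from 5000 to 8000 and 1.38 from 8000 bases. Replicate 2 of E16.5 also held more of 7 summed skeletal muscle markers, 891 FPKM against 398. In E18.5 the class medians went the other way, from 1.06 in the shortest class to 0.818 in the longest. From E14.5 to E16.5, the class medians after rescaling ran from 1.14 below 2000 bases to 0.821 from 8000 bases, and in that step Igfbp7, at 1213 bases, was called higher and Igf1, at 7817 bases, lower. Between embryo and adult they lay between 0.897 and 0.997. The part of length in these calls and in the receptor ratios was not tested.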

How the data were processed

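Whole-gland RNA was sequenced by the authors as 50 bp single-end reads from an Illumina TruSeq kit. The reads were mapped to mm9 with TopHat2 2.0.13 over Bowtie2 2.2.6 and counted on UCSC mm9 genes with featureCounts, leaving out reads with several positions or genes. The authors deposited 1 FPKM value per gene and sample. Their methods describe median normalization, but the FPKM were whole reads scaled to each sample's total (19467 of 19469 genes with at least 2 values above 0 had a length that made all values whole within 0.001), with median-of-ratios factors between 0.617 and 1.38. Depth was computed from these steps, and it limits counting precision only, as reads without molecular identifiers are not independent.

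FPKM were analysed as log2(FPKM + 1) over the 14650 genes that reached 1 FPKM in any of 13 samples. Fold changes on this scale understate those of low genes. Groups came from the sample labels. The study describes its replicates as biological, and p-values measure only the spread between these samples. In the comparisons of stages and of ratios, the spread within the embryo and the adult also includes differences between their time points. Limma 3.58.1 under R 4.3.3 (trend, Benjamini-Hochberg over all tested genes) compared 3 pairs of stages in one fit and 5 successive steps in a fit with 6 time points. Following the study, a gene passed when its absolute log2 fold change was 1 or more with adjusted p under 0.1, and was then called higher or lower. The fit was tested on simulated data. Ratios were compared by exact permutation with Python 3.11.15.

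All 10 members were named. Of the other pathway genes past the test from embryo to adult, those named were the 3 with the largest change in each direction (2 existed upward) without overlap of the stages, with Igf2, Igfbp1 and Igfals, and for each member the 3 genes with the highest r. Genes behind counts of 5 or fewer were also named, and these, like Rgs5, Amy1 and Airn, were chosen after their values were seen. The members, lists and tests were chosen with earlier results of these data known. Promoter sequences are RefSeq, GRCm38.p6. Gene positions are GENCODE, mm9, and no coordinates were converted.

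The alternatives were median-of-ratios rescaling, a pseudocount of 0.1, no or a stricter filter (2 samples), no variance trend, an adjusted p below 0.05, the replicate number as a block, averaged or separate stages, and each sample left out. Limma-voom on the recovered reads and leaving out both 4wk samples were added after the data were seen.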

Additional observations from a re-analysis of the deposited data

How the results depend on the processing

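The 6 calls from P5 to adult and the 3 receptor ratios kept their direction and their side of the threshold in all alternatives run, apart from rescaling, which left 4 calls. Leaving out 1 sample gave 6 to 7 calls from embryo to adult, 6 from P5 to adult, 0 to 4 from embryo to P5, 1 to 2 from E14.5 to E16.5, 5 to 6 from P5 to 4wk and 0 to 3 from 4wk to 12wk. Rescaling left 4 calls from embryo to adult, 2 from P5 to 4wk and gave 2 from 4wk to 12wk. A pseudocount of 0.1 gave 2 from 4wk to 12wk and 7 from embryo to adult, no filter on low values gave 0 from 4wk to 12wk, and an adjusted p below 0.05 gave 1 from embryo to P5 and 0 from 4wk to 12wk. The cause of these shifts was not tested.

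Deviations from the group means correlated at -0.016 on average for same-numbered samples (30 pairs, -0.352 to 0.273). For others the average was 0.012 (40 pairs, -0.273 to 0.352). In groups of 2 samples the deviations mirror each other, so these averages are not independent. They cannot decide whether some samples were paired. With the number as a block, 1 member was called from embryo to P5 and the other counts did not change.

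As shares of reads in place of FPKM, which weights by length, the embryo means were 6.23% for Igfbp2, 33.8% for Igfbp4, 38.1% for Igfbp5 and 6.35% for Igfbp7, and the adult means 14.1% for Igfbp2, 43.5% for Igfbp5, 3.12% for Igfbp6 and 19.3% for Igfbp7.

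Signs reversed for differences that had not passed the test as deposited, and not all of these were near 0. The log2 fold change from P5 to adult went from -0.58 to 0.071 for Igf2r and from -0.04 to 0.58 for Insr after rescaling. It was 0.00073 for Insr without the 4wk samples. That of Igfbp7 from embryo to adult went from -0.49 to 0.44 after rescaling, and that of Igfbp6 from 0.08 to -0.0051 with the block. Leaving out 1 sample gave -0.099 to 0.020 for Insr from P5 to adult, -0.019 to 0.10 for Insr from embryo to adult and -0.0051 to 0.23 for Igfbp6 from embryo to adult.

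With 2 samples at most time points, the steps detect only large changes, and the 4wk libraries are the shallowest.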
